A study of Rattus norvegicus with 12 samples.

Results

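Messenger RNA of 50 listed genes of ribosome biogenesis was examined in primary cultured rat IMCD cells (from the inner medullary collecting duct, where urine takes its final concentration) kept at high or lowered osmolality. The genes were taken by symbol. Of the 50, 45 were found on array probe sets assigned to 1 gene symbol, among 14506 genes tested in all, and Utp20, Rrp12, Pes1, Nop2 and Rrp1b were not analysed here. A gene was represented by its brightest probe set, by the mean over the 12 arrays. Of the 45, 39 had 1 probe set and 6 had several. The cells came from kidneys of male SD rats aged 7 weeks and were first grown for 4 days in hyperosmolar medium (640 mOsm/kg). They were then held at 640 mOsm/kg or moved to 300 mOsm/kg, and RNA was taken after 24 or 48 h. All 4 groups therefore share the 4 days at 640, and each has 3 samples on 1 array each. Whether the 3 came from separate rats or cultures is not stated in the labels, so p-values here refer to the spread among these samples alone, and that spread may be technical.

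Ribosomes are assembled mainly in the nucleolus. RNA polymerase I transcribes a long precursor of ribosomal RNA. Small nucleolar ribonucleoprotein particles (snoRNPs) guide its methylation (box C/D) and its conversion of uridine to pseudouridine (box H/ACA), and separate sets of assembly factors fold, trim and export the small and the large subunit. The transcription factor Myc is a known activator of many of these genes, through the E-box sequence bound by Myc with its partner Max, and growing and dividing cells make more ribosomes than resting ones.

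Because Myc is known to act through the E-box, the promoters were searched for CACGTG, which reads the same on both strands. The RefSeq table (build GRCr8) held 300 bases per gene, from 250 before to 50 after the start, and matched 40 of the 45 genes by gene ID. Of these 40 promoters 12 held the motif (30%), against 942 of 11950 promoters of genes tested (7.88%) and 2148 of all 33469 in the table (6.42%). By role it was in 5 of 13 small subunit genes, 4 of 10 large subunit genes, 2 of 8 snoRNP genes and, for the nucleolar and RNA polymerase I genes, in Mybbp1a among 9. Promoters of other RNA polymerase I and subunit assembly genes held it in 21 of 74 (28.4%), and those of ribosomal proteins in 5 of 56 (8.93%). A match is only a description of the sequence. The 250 bases before the start are shown for Gnl3, Ddx18 and Dkc1, which have the motif there and whose levels are described below, and for Gar1, which has no match in the window and had the largest difference between osmolalities at 48 h. Capitals mark the motif.
Gnl3 (chr16:6219783-6220032, minus strand): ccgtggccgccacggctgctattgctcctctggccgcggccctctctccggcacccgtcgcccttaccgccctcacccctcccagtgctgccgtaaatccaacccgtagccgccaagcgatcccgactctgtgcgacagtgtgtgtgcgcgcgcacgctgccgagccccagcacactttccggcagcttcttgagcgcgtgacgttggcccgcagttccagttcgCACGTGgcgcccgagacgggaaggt
Ddx18 (chr13:35295973-35296222, minus strand): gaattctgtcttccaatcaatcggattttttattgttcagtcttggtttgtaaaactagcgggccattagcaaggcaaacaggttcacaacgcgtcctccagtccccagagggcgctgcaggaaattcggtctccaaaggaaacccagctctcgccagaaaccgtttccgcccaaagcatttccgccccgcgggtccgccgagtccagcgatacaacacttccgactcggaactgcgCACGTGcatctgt
Dkc1 (chrX:157751401-157751650, plus strand): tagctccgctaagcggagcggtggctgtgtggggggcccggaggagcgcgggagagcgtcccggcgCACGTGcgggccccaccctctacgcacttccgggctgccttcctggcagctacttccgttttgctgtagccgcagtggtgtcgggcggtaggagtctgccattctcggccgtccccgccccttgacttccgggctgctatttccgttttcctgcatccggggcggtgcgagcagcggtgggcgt
Gar1 (chr2:221056750-221056999, minus strand): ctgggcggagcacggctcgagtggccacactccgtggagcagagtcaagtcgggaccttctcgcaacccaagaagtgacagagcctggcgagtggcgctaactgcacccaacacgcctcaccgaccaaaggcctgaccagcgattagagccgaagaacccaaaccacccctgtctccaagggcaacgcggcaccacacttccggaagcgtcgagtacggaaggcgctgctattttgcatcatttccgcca
The motif begins 25 bases before the start in Gnl3, 13 bases before it in Ddx18 and 184 bases before it in Dkc1. The 12 genes with the motif had a median log2 difference (300 minus 640) of -0.03 at 24 h and 0.14 at 48 h, and the 28 without it had 0.02 and 0.09. Over all genes tested the medians were -0.03 at 24 h and 0.03 at 48 h with the motif, and -0.04 and 0.02 without it.

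Levels are given as log2 intensity relative to the median of the 14506 genes on the same array, since the deposited values did not share a scale: array medians lay between 6.81 and 6.97 at 48 h and reached 7.58 at 24 h. A level compares samples for 1 gene and does not compare genes with each other. Differences were tested with limma over all genes and adjusted after Benjamini and Hochberg, and a gene was called at an adjusted p under 0.05. The arrays also paired up across osmolalities in a way the groups do not explain. After subtracting group means, replicate 1 at 300 went with replicate 3 at 640 (r = 0.83 over genes at 24 h and 0.78 at 48 h), replicate 2 with replicate 2 (0.84 and 0.80) and replicate 3 at 300 with replicate 1 at 640 (0.58 and 0.63). Over the 45 genes alone these values were 0.80 to 0.92. These correlations are across genes, which are not independent replicates. The spread within a group thus recurred at the other osmolality, and what the sets stand for is not given in the labels. The tests below do not use these sets, which no label gives, so their SEs and intervals include the spread between sets. Of the markers of the labelled cells, Aqp2, the vasopressin-regulated water channel of principal cells, fell at 300 by 3.65 at 24 h and by 4.41 at 48 h. Since levels of different probe sets are not compared here, they do not settle which cell types the cultures held.

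At 24 h no difference between osmolalities was detected for the ribosome biogenesis genes. limma called 0 of 45, against 0.655% of all genes, and 0 of 45 had an unadjusted p under 0.05, against 2.43% of all genes upward and 3.01% downward. The adjusted p was 1 for each of them. Of the 45, 26 were higher at 300 (40.9% of all genes were), with a median log2 difference of 0.02 against -0.04 over all genes. The 3 arrays of each osmolality did not overlap for 3 of 45 genes upward (Nhp2, Gnl2 and Nob1) and for Imp4 downward, against 3.7% and 4.86% of all genes. Their mean level on the 3 arrays was 2.33, 2.12 and 2.31 at 640 and 2.33, 2.10 and 2.36 at 300. Replicate 2 was thus the low array at both osmolalities, by more than the groups differed. It was the lowest of its group for 27 of 45 genes at 640 and 26 of 45 at 300, against 57.2% and 52% of all genes. Leaving out replicate 2 at 640 turned the median difference to -0.07, and leaving out replicate 2 at 300 moved it to 0.08. It was also below 0 without replicate 1 at 300 (-0.02) or without replicate 3 at 300 (-0.01), and it was 0.07 without replicate 1 at 640 and 0.03 without replicate 3 at 640. Without both arrays numbered 2 it was 0.03, and without the pair of 24 h arrays with the lowest medians 0.01. In each of these fits 0 were called, and the direction of the 24 h median is not settled.

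**Figure D1:**
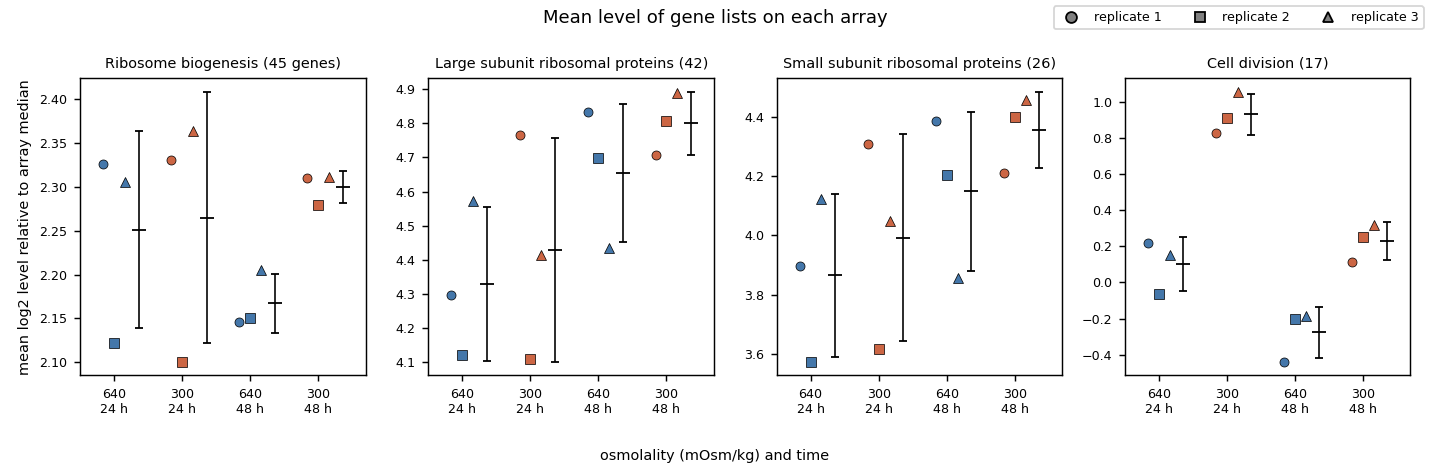
Mean log2 level relative to the array median (vertical axes, which differ between panels) of ribosome biogenesis genes, ribosomal proteins of each subunit and cell division genes on each of the 12 arrays, by osmolality and time. Symbols mark the replicate number and bars the mean with SD of 3 arrays. Ribosome biogenesis levels overlapped at 24 h, lay between 2.28 and 2.31 at 300 and between 2.15 and 2.21 at 640 after 48 h, and were low on both replicate 2 arrays at 24 h.

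The precision at 24 h sets limits on what could have been missed. The 95% intervals of the log2 difference, not widened for the number of genes, ran from -0.69 (the lower bound of Polr1c) to 0.73 (the upper bound of Utp18). All 45 intervals lay within a 2-fold difference in either direction, and 34 within 1.5-fold. Of all 14506 genes, 13846 lay within 2-fold and 7858 within 1.5-fold. The number of arrays, 3 per group, limits the precision.

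At 48 h, again, 0 of 45 genes were called by limma, against 1.85% of all genes (0.524% upward and 1.33% downward), while most lay slightly higher at 300. The count of genes above 0 was 40 of 45, against 54.6% of all genes, and the median log2 difference was 0.13 against 0.02 over all genes. Leaving out replicate 2 at 640 gave 0.08, leaving out replicate 3 at 640 gave 0.18, and leaving out replicate 3 at 300 gave 0.10. An unadjusted p under 0.05 was reached by 3 of 45 genes, all higher at 300 (Gar1, Nhp2 and Ebna1bp2), against 3.58% of all genes upward and 4.59% downward. The mean level of the 45 was 2.15, 2.15 and 2.21 at 640 and 2.31, 2.28 and 2.31 at 300. These means did not overlap, and no test was made on them because the genes were chosen with results of these data known. The 3 arrays of each osmolality did not overlap for 7 of 45 genes upward and 0 downward, against 7.83% and 7.02% of all genes. The intervals ran from -0.55 (Utp18) to 0.95 (Gar1), so that all 45 again lay within 2-fold, and 23 within 1.5-fold. Of all 14506 genes, 13562 lay within 2-fold and 7394 within 1.5-fold at 48 h.

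**Figure D2:**
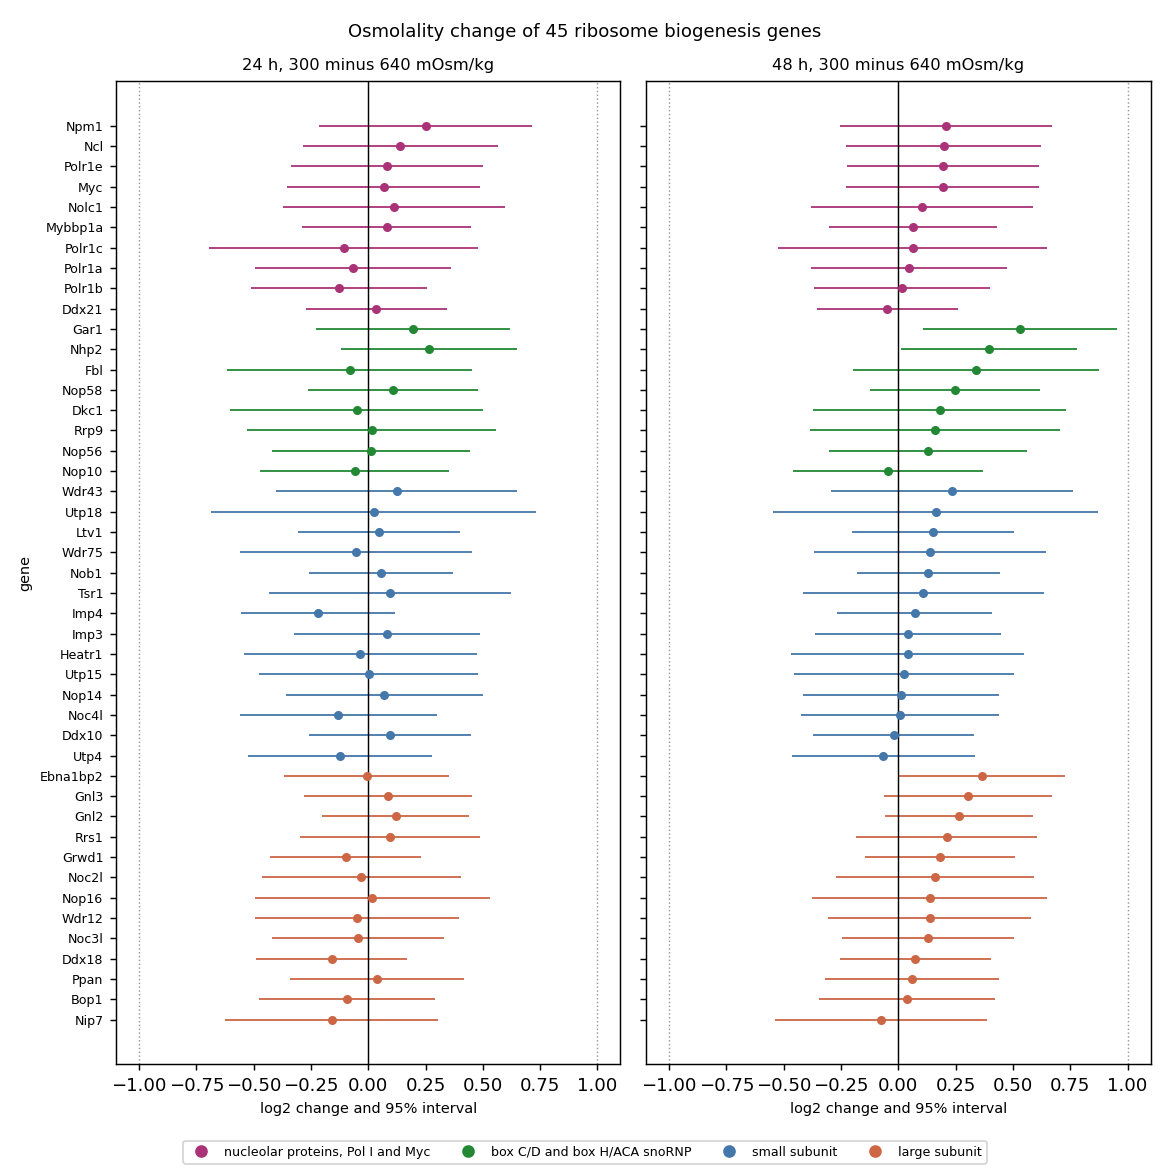
Log2 difference between 300 and 640 mOsm/kg (horizontal axes, points) with its 95% interval (lines) for the 45 genes at 24 h and 48 h, coloured by role. Dotted lines mark a 2-fold difference. No interval reached them, and at 48 h 40 points lay right of 0, with Gar1 (0.53) farthest.

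Of the difference between the times, that is the osmolality difference at 48 h minus that at 24 h, limma called 0 of 45 genes (0.0276% of all genes), and 0 had an unadjusted p under 0.05, against 0.338% of all genes upward and 0.565% downward. The median was 0.12 against 0.04 over all genes (0.05 without replicate 2 at 300 and 0.06 without replicate 1 at 640, both of 24 h, and 0.21 without replicate 2 at 640 of 24 h), and 38 of 45 were above 0 (60.1% of all genes). All 13 large subunit genes and all 8 snoRNP genes were among these. The largest values were those of Fbl (0.42 ± 0.355 SE) and Ebna1bp2 (0.37 ± 0.239 SE), each with adjusted p = 1.000. That the genes differed between osmolalities at 48 h and not at 24 h is therefore not shown.

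The largest values at 48 h were those of Gar1 and Nhp2, proteins of the particles that modify ribosomal RNA. Of the 8 snoRNP genes 5 lay above 0 at 24 h (median 0.01) and 7 at 48 h (median 0.21), and 0 were called at either time. Gar1 is a core protein of the box H/ACA particle. Its level at 48 h was 0.73, 1.32 and 0.80 on the arrays at 640 and 1.37, 1.70 and 1.38 at 300, so the groups did not overlap, with replicate 2 the highest of each. The difference was 0.53 ± 0.198 SE (means 0.95 ± 0.321 and 1.48 ± 0.186, SD, n = 3, adjusted p = 0.337). At 24 h its level was 0.94, 1.06 and 1.32 at 640 and 1.56, 1.25 and 1.09 at 300, which overlap (0.19 ± 0.198 SE, adjusted p = 1; 0.06 to 0.30 with 1 array left out).

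Nhp2, another core protein of that particle, stood at 2.92, 3.09 and 3.01 at 640 and at 3.38, 3.25 and 3.19 at 300 after 24 h. The groups did not overlap there, and the difference was 0.27 ± 0.180 SE (adjusted p = 1). After 48 h it stood at 3.19, 3.08 and 2.66 at 640 and at 3.11, 3.61 and 3.40 at 300. Those groups overlapped, with a difference of 0.40 ± 0.180 SE (adjusted p = 0.570). Dkc1, dyskerin, is the pseudouridine synthase of the particle and is encoded on the X chromosome. Its groups overlapped: at 48 h its level was 2.07, 1.27 and 1.85 at 640 and 2.09, 1.45 and 2.20 at 300, low on replicate 2 at both osmolalities (0.18 ± 0.259 SE, adjusted p = 0.999). At 24 h it stood at 1.93, 1.64 and 2.26 at 640 and at 2.26, 1.63 and 1.79 at 300 (-0.05). Nop10, the smallest protein of the particle, had -0.06 at 24 h and -0.04 at 48 h.

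In the box C/D particle, fibrillarin (Fbl) is the methyltransferase and Nop56 and Nop58 are its paired scaffold proteins. Fbl stood at 2.76, 2.40 and 2.36 at 640 and at 2.72, 2.75 and 3.06 at 300 after 48 h (0.34 ± 0.251 SE, adjusted p = 0.999). After 24 h it stood at 3.03, 2.19 and 3.00 at 640 and at 2.84, 2.17 and 2.97 at 300 (-0.08). The groups overlapped at both times, and at 24 h the low array was replicate 2 at each osmolality. Nop58 stood at 2.55, 3.02 and 2.84 at 640 and at 3.05, 3.13 and 2.97 at 300 after 48 h, again overlapping (0.25 ± 0.174 SE, adjusted p = 0.999). At 24 h it stood at 3.02, 2.84 and 3.16 at 640 and at 3.35, 2.94 and 3.05 at 300 (0.11). Nop56 had 0.01 at 24 h and 0.13 at 48 h, and Rrp9, a protein of the U3 particle that acts in cleavage of the precursor, had 0.01 and 0.16.

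Of the 13 large subunit genes, 5 had values above 0 at 24 h (median -0.03) and 12 at 48 h (median 0.14), and 0 were called. Ebna1bp2, a nucleolar assembly factor of the large subunit, stood at 2.44, 2.50 and 2.55 at 640 and at 2.99, 2.78 and 2.82 at 300 after 48 h. These groups did not overlap, with means of 2.50 ± 0.0513 and 2.86 ± 0.112 (SD, n = 3) and a difference of 0.36 ± 0.169 SE (adjusted p = 0.594). At 24 h it stood at 2.34, 2.35 and 2.73 at 640 and at 2.73, 2.34 and 2.34 at 300, with 1 high array in each group and a difference of -0.01. Its other, dimmer probe set gave 0.32 at 48 h and 0.03 at 24 h.

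Gnl3, nucleostemin, and Gnl2 are related nucleolar GTPases. Gnl3 stood at 1.18, 1.56 and 1.46 at 640 and at 1.60, 1.78 and 1.73 at 300 after 48 h, without overlap (0.30 ± 0.172 SE, adjusted p = 0.836). After 24 h it stood at 1.95, 2.15 and 1.71 at 640 and at 1.85, 2.03 and 2.20 at 300 (0.09). The groups overlapped then. At 640 and also at 300, every 24 h array lay above every 48 h array. Gnl2 stood at 2.23, 2.59 and 2.47 at 640 and at 2.65, 2.80 and 2.63 at 300 after 48 h (0.26 ± 0.151 SE, adjusted p = 0.838). After 24 h its values were 2.46, 2.42 and 2.43 at 640 and 2.60, 2.46 and 2.61 at 300 (0.12 ± 0.151 SE, adjusted p = 1). The groups did not overlap at either time, though at 24 h the nearest arrays were almost level.

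Ddx18, an RNA helicase, stood at 2.89, 2.85 and 2.89 at 640 and at 2.97, 2.96 and 2.93 at 300 after 48 h. This is a separation without overlap of only 0.07 ± 0.154 SE (adjusted p = 0.999). At 24 h its value was -0.16 ± 0.154 SE (-0.25 to -0.04 with 1 array left out), with levels of 3.33, 2.92 and 3.04 at 640 and 2.94, 2.81 and 3.07 at 300. Bop1 and Wdr12, which form a complex with Pes1, had 0.04 and 0.14 at 48 h. The remaining genes of this role, Nop16, Rrs1, Noc2l, Noc3l, Ppan, Grwd1 and Nip7, lay between -0.08 (Nip7) and 0.21 (Rrs1) at 48 h.

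The 14 small subunit genes had medians of 0.03 at 24 h and 0.06 at 48 h. Above 0 were 9 at 24 h and 12 at 48 h, and 0 were called. Imp4, a component of the small subunit processome, was the gene of the 45 whose arrays were separated downward at 24 h: it stood at 2.90, 3.02 and 2.79 at 640 and at 2.69, 2.65 and 2.71 at 300. The difference was -0.22 ± 0.158 SE (adjusted p = 1). At 48 h it stood at 3.05, 2.58 and 2.78 at 640 and at 2.80, 2.89 and 2.93 at 300, which overlap (0.07). Nob1, the endonuclease that makes the last cut of the small subunit RNA, was separated upward at 24 h by 0.06 ± 0.147 SE. The processome proteins Utp4, Utp15, Utp18, Wdr43, Wdr75, Heatr1, Imp3, Nop14 and Noc4l and the factors Ddx10, Tsr1 and Ltv1 had values from -0.07 (Utp4) to 0.23 (Wdr43) at 48 h.

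**Figure D3:**
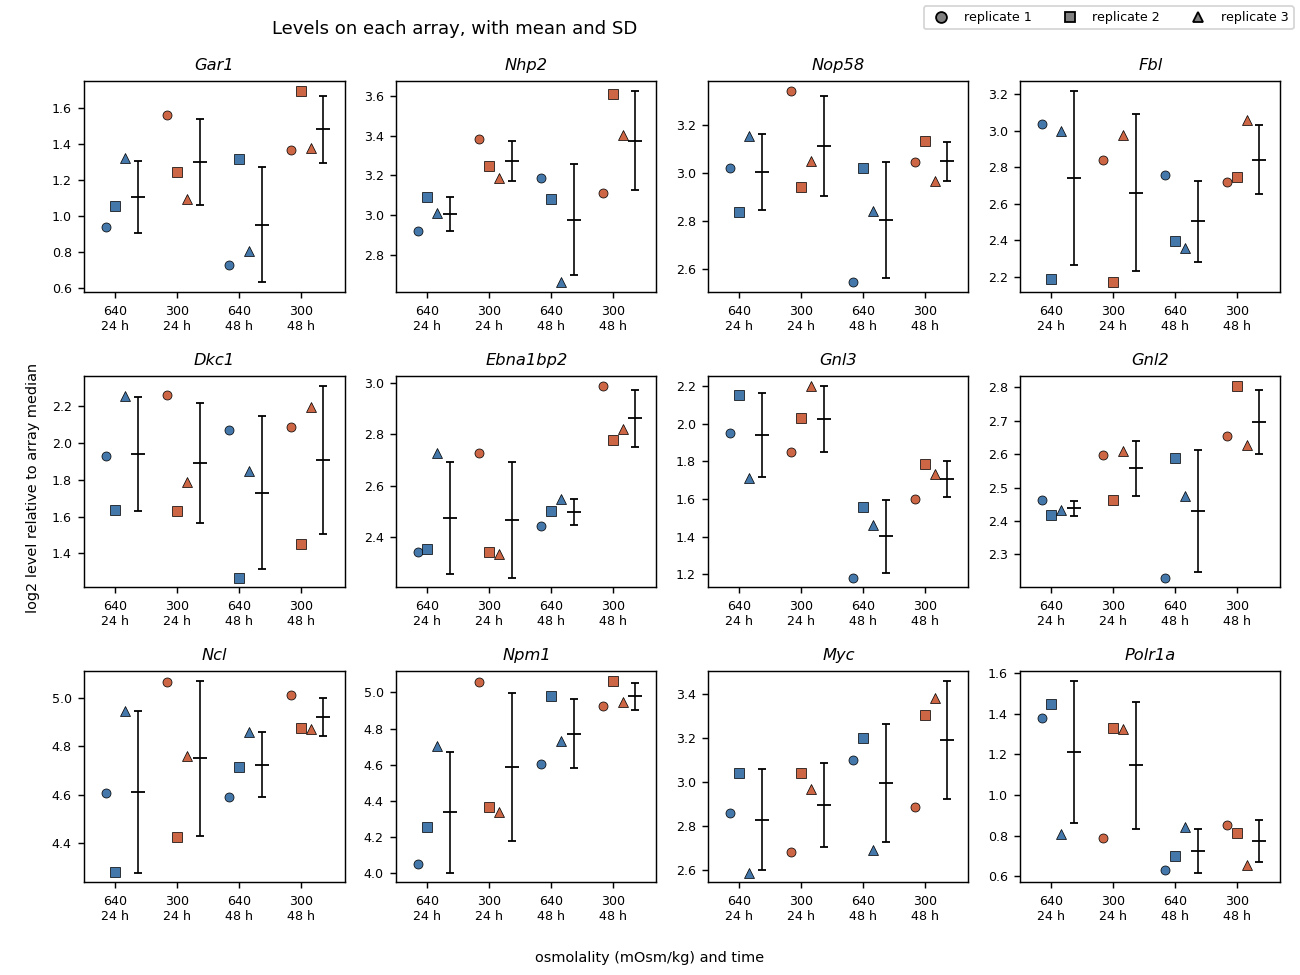
Log2 level relative to the array median (vertical axes, which differ between panels) of 12 genes on each array, by osmolality and time. Symbols mark the replicate number and bars the mean with SD of 3 arrays. Gar1, Ebna1bp2, Gnl3, Gnl2 and Ncl did not overlap between osmolalities at 48 h, and Polr1a was low on 1 array of each osmolality at 24 h and on all 6 at 48 h.

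Among the nucleolar proteins, Myc and the RNA polymerase I subunits, 7 of 10 lay above 0 at 24 h (median 0.07) and 9 of 10 at 48 h (median 0.08), and 0 were called. Ncl, nucleolin, stood at 4.61, 4.28 and 4.95 at 640 and at 5.07, 4.43 and 4.76 at 300 after 24 h (0.14 ± 0.199 SE). After 48 h it stood at 4.59, 4.72 and 4.86 at 640 and at 5.01, 4.88 and 4.87 at 300, separated with the nearest arrays almost level (0.20 ± 0.199 SE, adjusted p = 0.999). Npm1, nucleophosmin, stood at 4.05, 4.26 and 4.71 at 640 and at 5.06, 4.37 and 4.34 at 300 after 24 h (0.25 ± 0.217 SE, adjusted p = 1), and leaving out 1 array in turn gave 0.02 to 0.44. After 48 h it stood at 4.60, 4.98 and 4.73 and at 4.93, 5.06 and 4.95 (0.21 ± 0.217 SE), with overlap at both times. All 4 probe sets of Npm1 had values above 0 at both times.

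Myc itself did not differ detectably. It stood at 2.86, 3.04 and 2.59 at 640 and at 2.68, 3.04 and 2.97 at 300 after 24 h (0.07 ± 0.198 SE). After 48 h it stood at 3.10, 3.20 and 2.69 and at 2.89, 3.31 and 3.38 (0.19 ± 0.198 SE, adjusted p = 0.999). The 95% interval at 48 h was -0.23 to 0.62, and leaving out 1 array in turn gave 0.04 to 0.35. Polr1a, the largest subunit of RNA polymerase I, had 1.38, 1.45 and 0.81 at 640 and 0.79, 1.33 and 1.33 at 300 after 24 h, and 0.63, 0.70 and 0.84 and 0.85, 0.81 and 0.66 after 48 h. The differences were -0.06 and 0.05 (0.200 SE). The subunits Polr1b, Polr1c and Polr1e had 0.02, 0.06 and 0.19 at 48 h, the helicase Ddx21 -0.05, and the nucleolar proteins Nolc1 and Mybbp1a 0.10 and 0.06.

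Time was compared within each osmolality, 48 h minus 24 h, on the same arrays as the comparisons of osmolality. limma called 0 of 45 genes at 640, against 0.138% of all genes, and 0 of 45 at 300, against 0.255% (0.165% upward and 0.0896% downward). At 640, 32 of 45 were lower after 48 h and 13 higher (50.3% of all genes were higher), with a median of -0.10 against 0.00 over all genes. The arrays of the times did not overlap for 2 of 45 genes upward and 4 downward, against 4.95% and 4.63% of all genes. An unadjusted p under 0.05 was reached by 4 of 45, all lower (2.92% of all genes downward, 3.65% upward). These were Gnl3 (-0.54 ± 0.172 SE, adjusted p = 0.495), Grwd1, a chaperone of a large subunit protein (-0.45 ± 0.154, adjusted p = 0.531), Polr1a (-0.49 ± 0.200, adjusted p = 0.672) and Ltv1, a factor of small subunit export (-0.37 ± 0.166, adjusted p = 0.738). Grwd1 stood at 1.62, 1.62 and 1.55 after 24 h and at 1.23, 1.06 and 1.16 after 48 h, and Ltv1 at 1.92, 1.99 and 1.75 and at 1.28, 1.52 and 1.74. At 300 the median was -0.01 against 0.05 over all genes, 22 of 45 were higher (58.6% of all genes), 5 were separated upward and 2 downward (7.29% and 4.85% of all genes), and Ebna1bp2 alone had an unadjusted p under 0.05 (0.39 ± 0.169 SE, adjusted p = 0.606, background 4.61% upward and 3.01% downward).

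These values over time depend on the scale. Array medians were on average lower at 48 h by 0.43 at 300 and by 0.42 at 640, but not on every array. At 24 h, replicate 1 at 300 (6.89) and replicate 3 at 640 (6.90) lay within the 48 h range of 6.81 to 6.97. The other 24 h arrays lay between 7.43 and 7.58. The arrays with low medians belong to the same set among those described above that deviate together. On the deposited scale the median of the 45 was -0.44 at 300 and -0.52 at 640, with 0 called. All genes shift alike on that scale. Relative to them the 45 lay at -0.06 and -0.10, which is the same on centred arrays by construction. On centred arrays the median at 640 was -0.18 without replicate 2 of 24 h, -0.05 without replicate 1 or 3 of 24 h and -0.04 without replicate 2 of 48 h. At 300 it changed sign with the array left out, from -0.06 to 0.09. With array weights 4 of 45 were called at each osmolality. At 300 these were Ebna1bp2 (0.48), Npm1 (0.57), Gnl3 (-0.44) and Polr1a (-0.55). At 640 they were Npm1 (0.64), Gnl3 (-0.57), Grwd1 (-0.46) and Polr1a (-0.63). The same setting called 1907 of all 14506 genes over time at 300 and 986 of them at 640. Fibroblast markers were higher at 48 h for 9 of 9 genes at each osmolality (medians 1.07 at 300, with 4 called, and 1.13 at 640, with 3 called), and macrophage markers for 9 of 11 at 300 and 10 of 11 at 640. The mean level of the fibroblast list lay between -0.74 and -0.26 at 24 h and between 0.32 and 0.73 at 48 h. Cell division genes were lower at 48 h for 17 of 17 at 300, with a median of -0.73. Of these 2 were called, against 0.0896% of all genes downward. At 640 they were lower for 16 of 17, with a median of -0.36 and 0 called. The part of these lists in the values over time was not tested.

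The other genes of the pathway were described in the same way. Of all genes 40.9% lay above 0 at 24 h and 54.6% at 48 h. Of 38 other large subunit genes, 18 lay above 0 at 24 h (median 0.00) and 36 at 48 h (median 0.15). Of 35 other small subunit genes these were 15 and 29 (-0.01 and 0.12), and of 11 other RNA polymerase I genes 10 and 10 (0.11 and 0.16). limma called 0 genes of these lists at either time. An unadjusted p under 0.05 was reached by 0 of them at 24 h and by 1 gene of each list at 48 h, higher at 300. Over all genes 2.43% reached it upward and 3.01% downward at 24 h, and 3.58% and 4.59% at 48 h. The genes with the smallest p per list and time follow, and those of 24 h did not reach 0.05 unadjusted. For the large subunit they were Sbds, which releases a factor from it (-0.25 at 24 h, adjusted p = 1), and the helicase Ddx56 (0.40 at 48 h, adjusted p = 0.570). For the small subunit they were the RNA acetyltransferase Nat10 (0.28 at 24 h, adjusted p = 1) and Aatf (0.41 at 48 h, adjusted p = 0.546). For RNA polymerase I they were Polr2e, a subunit shared by the RNA polymerases (-0.40 at 24 h, adjusted p = 1), and the subunit Polr1g (0.39 at 48 h, adjusted p = 0.302). The 18 genes of the RNA exosome and RNase MRP, which trim and cut the precursor, had medians of -0.05 and 0.07, and the 17 of RNA polymerase III, which makes the smallest ribosomal RNA, 0.00 and 0.07. Exosc4 (-0.32 at 24 h, adjusted p = 1), Exosc8 (-0.52 at 48 h, adjusted p = 0.508) and Polr3g (0.30 at 24 h and 0.29 at 48 h, adjusted p = 1 and 0.999) had the smallest p there, with 0 called and an unadjusted p under 0.05 for Exosc8 alone.

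Ribosomal proteins, the products that these factors assemble, had mostly small values, most of them higher at 300. Of 42 large subunit proteins 39 were higher at 300 after 24 h (median 0.10) and 40 after 48 h (0.16), and of 26 small subunit proteins 23 (0.12) and 24 (0.21). Of all genes 40.9% were higher at 24 h and 54.6% at 48 h. The mean levels of both lists overlapped between osmolalities at both times. For large subunit proteins after 48 h they lay between 4.44 and 4.83 at 640 and between 4.71 and 4.89 at 300. After 24 h they were 4.30, 4.12 and 4.57 at 640 and 4.765, 4.11 and 4.41 at 300. For small subunit proteins they were 3.90, 3.57 and 4.12 at 640 and 4.31, 3.62 and 4.05 at 300. Replicate 1 at 300 was the highest of the 24 h arrays in both lists, and the medians without it are not given here. At 24 h the arrays overlapped for every protein. At 48 h they did not for 6 large subunit proteins upward and 0 small (7.83% of all genes upward). limma called 0 of them at either time, and an unadjusted p under 0.05 was reached by Rpl15 at 24 h and by 0 at 48 h. The smallest p were those of Rpl15 (-0.70 at 24 h, adjusted p = 0.886) and Rps24 (0.30, adjusted p = 1) at 24 h, and Rpl35 (0.28, adjusted p = 0.944) and Rps14 (0.39, adjusted p = 0.999) at 48 h. Probe sets of ribosomal proteins can take signal from their many processed pseudogenes, so single values are uncertain. Over time, on centred arrays, the ribosomal proteins had larger values. All 42 large and 26 small subunit proteins were higher at 48 h at 300 (medians 0.37 and 0.38), as were 39 and 25 at 640 (0.36 and 0.28), where the biogenesis genes had -0.01 and -0.10. On the deposited scale, where all genes shift by -0.38 at 300 and -0.41 at 640, the direction of the proteins' medians flips (large then small: -0.07 and -0.06 at 300, -0.06 and -0.13 at 640). Relative to all genes they are 0.32 and 0.33 at 300 and 0.35 and 0.28 at 640. These values are the same on both scales by construction, since centring moves every gene alike. With cyclic loess the medians were 0.16 and 0.22 at 300 and 0.16 and 0.13 at 640. On centred arrays limma called 0 ribosomal proteins over time. An unadjusted p under 0.05 was reached by 11 large and 1 small subunit protein at 300 and 7 and 1 at 640. All were higher at 48 h, against 4.61% of all genes upward at 300 and 3.65% at 640. With array weights limma called 20 large and 7 small subunit proteins at 300 and 7 and 1 at 640, all higher at 48 h. That setting also called many of all genes over time, with the counts given above.

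**Figure D4:**
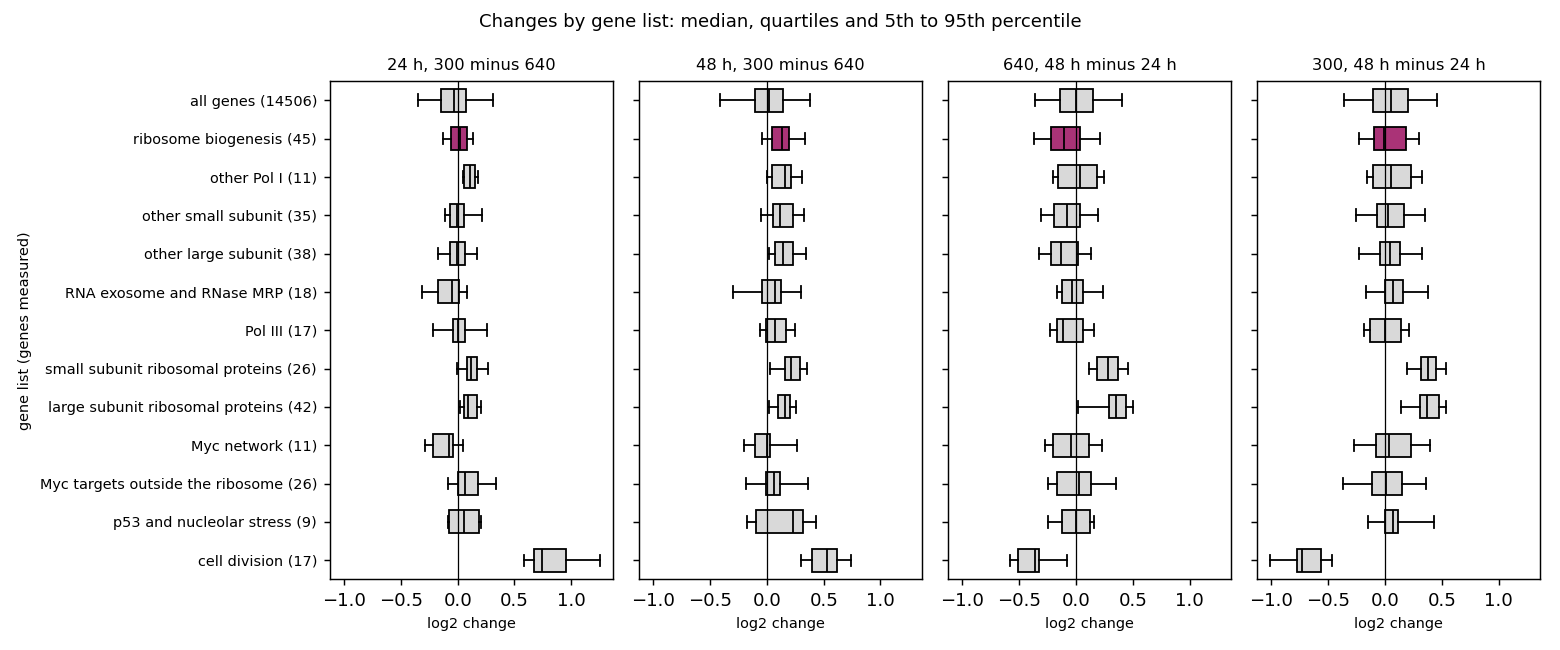
Log2 change (horizontal axes) by gene list in 4 comparisons on centred arrays, with the number of genes measured in brackets. Boxes give the quartiles, the line in them the median and whiskers the 5th and 95th percentile of genes. The ribosome biogenesis box (coloured) lies around 0 at 24 h and around 0.13 at 48 h, ribosomal proteins are shifted upward over time, and among the lists drawn the cell division medians at 24 h and 48 h are 0.74 and 0.53.

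Of 11 other genes of the Myc network 2 were higher at 300 at 24 h and 6 at 48 h, with medians of -0.08 and 0.00. Mxi1, a repressor that competes with Myc for Max, had -0.62 ± 0.251 SE at 24 h (adjusted p = 0.681) and -0.74 ± 0.251 at 48 h (adjusted p = 0.243). Of 26 known Myc targets outside the ribosome, 20 and 18 were higher (median 0.06 at each time), and by smallest p at each time the rule names the nucleoside diphosphate kinase Nme1 (0.34 ± 0.169 SE at 24 h, adjusted p = 1, and 0.67 ± 0.169 at 48 h, adjusted p = 0.0608). The 9 genes of p53 and nucleolar stress had medians of 0.05 and 0.23, with Sesn1 at -0.50 (24 h, adjusted p = 1) and Cdkn2a at 0.59 (48 h, adjusted p = 0.201). limma called 0 genes of these 3 lists. An unadjusted p under 0.05 was reached by Mxi1 alone at 24 h, and at 48 h by 2 genes of the Myc network, 1 Myc target and 2 genes of the p53 list. Over all genes 2.43% reached it upward and 3.01% downward at 24 h, and 3.58% and 4.59% at 48 h. Higher at 300 were 40.9% of all genes at 24 h and 54.6% at 48 h.

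Cell division genes had larger values. All 17 measured were higher at 300 at both times, with medians of 0.74 at 24 h, where 5 rose (Ccna2 by 1.25, Top2a by 1.06 and Nusap1 by 0.91 with the smallest p), and 0.53 at 48 h, where 0 were called and 10 had an unadjusted p under 0.05. Of all genes 0.276% were called upward at 24 h, and 3.58% had an unadjusted p under 0.05 upward at 48 h. Their mean level lay between -0.06 and 0.22 at 640 and between 0.83 and 1.06 at 300 after 24 h, and between -0.44 and -0.19 and between 0.11 and 0.32 after 48 h. The ribosome biogenesis medians at these times were 0.02 and 0.13. Whether the change of the 2 lists differs was not tested. Of the cell type lists, all but the intercalated cell markers held called genes at 48 h. Of 7 intercalated cell markers 5 were higher and 2 lower at 300. Their list means overlapped (-2.28 to -2.10 at 640 and -2.25 to -2.08 at 300). Of 16 principal cell markers 6 were higher and 10 lower at 300, and 4 fell, among them Aqp2, Aqp3 by 2.19 and Slc14a2 by 2.54. The mean of that list lay between 2.65 and 2.78 at 640 and between 1.86 and 2.07 at 300. All 6 limb markers were lower and 2 fell (Aqp1 by 2.48 and Slc12a1 by 1.17), with the list mean between -0.45 and -0.16 at 640 and between -1.27 and -1.09 at 300. Of 11 macrophage markers 3 were higher and 8 lower, with values from -0.69 to 0.73. Csf1r fell by 0.69, and the list mean lay between -0.53 and -0.36 at 640 and between -0.70 and -0.50 at 300. Of 9 fibroblast markers 5 were higher and 4 lower, from -0.45 to 1.22. Postn rose by 1.22, and the list means overlapped (0.32 to 0.54 at 640 and 0.41 to 0.73 at 300). All 7 endothelial markers were lower and Emcn fell by 1.32, with the list mean between -0.21 and 0.15 at 640 and between -0.61 and -0.34 at 300. Their part in the small upward values of the ribosome biogenesis genes at 48 h was not tested, and in these bulk samples fewer cells of a type and less RNA per cell cannot be told apart.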

How the data were processed

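Total RNA of 12 samples was hybridised to Affymetrix Rat Gene 1.0 ST arrays, 3 per group. Titles gave the groups and replicate numbers. Sample codes in the descriptions differ from the stated osmolality in 2 groups, and the titles and treatment labels were followed. Per the submitters' processing notes, the authors deposited log2 intensities made with RMA in Affymetrix Power Tools (versions and joint processing not given in the sources used here). Probe sets were named through the platform's gene table (15310 of 27596 with 1 symbol, 14506 genes). No detection calls were used. Values were centred on each array's median over these genes and fitted with limma 3.58.1 in R 4.3.3, 1 mean per group, 8 residual degrees of freedom. Gene variances were moderated over all genes, which adds 6.8 prior degrees of freedom. Tests, SEs and 95% intervals rest on the moderated variances. The code was tested on simulated data. The members, gene lists and rule for named genes were chosen with earlier results of these data known. The rule gives array values for called members, the 6 with the smallest p at each time and 6 fixed genes, and from every other list up to 3 called genes or the 1 with the smallest p. Grwd1 and Ltv1 and other members with array values were added after their values were seen. Alternatives were other array scales, filters, variance models, probe set means, arrays used and the replicate number as a block. Leaving out pairs of arrays at 24 h was chosen after seeing the data.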

Additional observations from a re-analysis of the deposited data

How the results depend on the processing

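In every setting run, 0 of the 45 genes were called between osmolalities at 24 h, at 48 h or for the difference between times. The lowest adjusted p reached was 0.0916 at 24 h, with array weights, and 0.146 at 48 h, for Gar1 without 1 array. Over time, array weights gave 4 called genes at 300 and 4 at 640, and every other setting gave 0. Between osmolalities, array weights raised the calls over all genes from 95 to 1595 at 24 h and from 269 to 499 at 48 h. The calls over all genes for time with array weights are given above with the values over time. The cause was not tested. The deposited scale, which shifts all genes, moved the medians over time to -0.442 at 300 and -0.517 at 640. Relative to all genes they are -0.0586 and -0.102 on either scale by construction, since centring moves every gene alike. Leaving out each array gave medians from -0.0666 to 0.0847 at 24 h, from 0.0839 to 0.179 at 48 h, from 0.0531 to 0.207 for the difference between times, from -0.0644 to 0.0921 over time at 300 and from -0.178 to -0.0427 over time at 640. Of 644 single-gene values, 619 kept their direction and 25 turned, 21 of them when 1 array was left out. Many of the 619 could not turn, because leaving out arrays of the other time does not change a value. The filter on dim genes, the variance trend, the fit of only the groups compared and the replicate block also leave it unchanged. Ebna1bp2 at 24 h (-0.0063) became 0.0072 on the deposited scale, 0.0203 with cyclic loess, 0.0073 when centred on all probe sets and 0.0193 with the mean of its probe sets. When each array was left out, its value ranged from -0.136 to 0.120. At 24 h the ranges were -0.0281 to 0.194 for Gnl3, -0.0081 to 0.193 for Nop58, -0.0262 to 0.307 for Ncl, -0.357 to 0.164 for Fbl, -0.0537 to 0.174 for Myc, -0.267 to 0.116 for Polr1a and -0.235 to 0.108 for Dkc1. At 48 h they were -0.0409 to 0.196 for Imp4 and -0.0515 to 0.410 for Dkc1. Same-numbered arrays at the 2 osmolalities did not all deviate together (r from -0.231 to 0.844), and only those numbered 2 correlated best with their own number, so the numbers do not pair the samples. The replicate block gave 0 called members in all 5 comparisons and moved the calls over all genes from 95 to 159 at 24 h and from 269 to 403 at 48 h. This block follows the numbers and not the sets that deviate together. It therefore cannot show what a fit that uses those sets would call. Fitting only the groups compared gives no value for the difference between times. What limits these results is 3 arrays per group and sets of arrays that deviate together.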
